A study of Mus musculus with 19 samples.

Results

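The genes described here are the creatine kinases and the genes that make and import creatine, in mouse muscle cells and in muscle of obese mice. They were selected by name as every probe of Ckm, Ckb, Ckmt1, Ckmt2, Gatm, Gamt and Slc6a8 on a 1-colour Agilent mouse array, and the names were chosen with earlier results of the same arrays known. The 7 genes had 8 probes of the 41174 on the array, and the array named 27793 genes in all. Gene expression was measured in 4 groups on 19 arrays. C2C12 cells, a mouse myoblast line, carried empty plasmids (C2C12 WT, 6 arrays) or stably expressed human wild-type HDAC4 from pIRES neo3 and human wild-type HDAC5 from pIRES hyg3 (C2C12 HDAC4&5, 6 arrays). All 12 cultures were kept in hygromycin and geneticin, each at 500 µg/mL, and were harvested 48 h after seeding. Soleus muscle came from male mice on the C57BL6J background aged 12 weeks and fasted for 5 h, which were heterozygous for the db allele of the leptin receptor (Con, db -/+, 3 arrays) or homozygous for it (db, db +/+, 4 arrays). HDAC4 and HDAC5 are class IIa histone deacetylases, repressors of muscle genes that act largely through MEF2 transcription factors, and db/db mice lack leptin signalling in every tissue, so that their muscle differs from that of controls in far more than its own genes. The study's methods count separate culture dishes and individual mice as replicates. For the arrays they give fewer biological replicates per group than the C2C12 and db groups have arrays, and the labels do not tie arrays to dishes or mice. The 6 arrays of a cell group lay in pairs on 3 slides, so some may be repeats of the same sample. Dishes of a stable line are not separate lines either, and p-values measure only the spread between these arrays, which may be technical.

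Creatine kinases move a phosphate group between ATP and creatine. Phosphocreatine made in this way buffers ATP where it is used quickly, and carries energy from mitochondria to myofibrils and ion pumps. Ckm encodes the cytosolic muscle subunit, which also sits at the M-band of the sarcomere, and Ckb encodes the cytosolic brain subunit, which is the main form in myoblasts and is replaced by Ckm as muscle cells differentiate. Ckmt2 encodes the mitochondrial form of striated muscle and Ckmt1 the ubiquitous mitochondrial form. Gatm makes guanidinoacetate from arginine and glycine, Gamt methylates it to creatine with a methyl group from S-adenosylmethionine, and Slc6a8 is the transporter that brings creatine in from the blood. Adult skeletal muscle is known to rely mostly on this import.

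Levels are given as log2 of the processed signal minus log2 of the array's 75th percentile, so that 0 is the 75th percentile of that array, 1 unit is a factor of 2, and levels of different probes cannot be set against each other. The 75th percentile of the processed signal was 564 to 1691 on C2C12 WT arrays, 494 to 873 on HDAC4&5 arrays, 153 to 555 on Con arrays and 180 to 686 on db arrays, and 46.8% to 57.5% of the spots of an array were well above background. The C2C12 arrays lay on 3 slides that each held both groups, and the soleus arrays on 2 slides that each held both groups. The mouse Hdac5 probe was higher in HDAC4&5 cells by 1.42 ± 0.27 (SE, limma adjusted p = 0.000388), while the mouse Hdac4 probe differed by -0.05 ± 0.05 (limma adjusted p = 0.347), and whether these probes bind the human transcripts was not analysed here. The labelled cell type was borne out in part. In C2C12 WT cells Myod1 (2.70 ± 0.13) and Des (5.87 ± 0.32, SD, n = 6) were well above background on all 6 arrays, and Pax7 and Myf5 on none. HDAC4&5 cells had no array with Myod1, Pax7 or Myf5 well above background. Of the same myoblast list, Des (-2.58 ± 0.39, SD) and Cdh15 (0.29 ± 0.09, SD) were well above it on all 6 HDAC4&5 arrays. In WT cells Cdh15 read 5.98 ± 0.57 (SD), so both were lower in HDAC4&5 cells. The soleus arrays of both groups had all 6 slow fibre and all 6 fast fibre markers well above background on every array.

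In C2C12 cells the group split in both directions: Ckb, Gamt, Gatm and Ckm read lower in HDAC4&5 cells, and the importer Slc6a8 read higher. Of the 7 genes, 5 could be compared, because Ckmt1 and Ckmt2 were not well above background on every array of either group, and 4 of the 5 were well above background on all 12 arrays. In limma all 5 had an adjusted p (Benjamini-Hochberg) under 0.05, against 69.2% of the 14137 genes tested. By direction, 4 were lower, against 32.8% of all genes tested, and 1 was higher, against 36.4%. The groups did not overlap for any of the 5, which held for 54.6% of all genes tested. The median difference of the 5 was -2.58, which is the measured value of Ckm, a gene with only a limit in HDAC4&5 cells. With Ckm at its bound the median was -2.47, and that of all genes tested was 0.05. Since most genes on the array differed and the names were chosen with these values known, the counts describe the group and are no test of it, and no p-value is given for its C2C12 differences. In bulk RNA, fewer cells of a type and less RNA per cell cannot be told apart.

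Ckb, the myoblast form of cytosolic creatine kinase, had the largest difference of the group. Its probe 1 lies at chr12:112907696-112907755 (mm9, minus strand). The probe read 3.46, 3.36, 3.29, 3.25, 3.32 and 3.17 in WT replicates 1 to 6, and -3.10, -3.13, -2.97, -3.17, -3.10 and -2.95 in HDAC4&5 replicates 1 to 6. Every WT array was above the 75th percentile of its array and every HDAC4&5 array below it, with a gap between the groups far wider than the spread inside either. The means were 3.31 ± 0.10 and -3.07 ± 0.09 (SD, n = 6 each), a difference of -6.38, or 83.2-fold lower. Of the 14137 genes tested, 111 had a more negative difference. Within slides 1, 2 and 3 the difference was -6.52, -6.34 and -6.27.

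A second Ckb probe, probe 2, lies at chr12:112908459-112909105 on the same strand. Its 60 bases spread over 647 bases of genome, so it crosses at least 1 splice junction. Probe 2 read 1.45 ± 0.18 in WT cells and -5.80 ± 0.57 in HDAC4&5 cells (SD, n = 6 each), a difference of -7.25 with no overlap. Only 2 of the 6 HDAC4&5 arrays were well above background with it, so its size is less certain than that of probe 1, on which all 12 were. Both probes put Ckb lower in HDAC4&5 cells on each of the 3 slides, probe 2 by -7.53, -7.64 and -6.57.

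Ckm, the adult muscle form, was dim in C2C12 cells. Its probe spans chr7:20002222-20004829 (mm9, plus strand), 2608 bases of genome for 60 bases of transcript. It read -3.35, -3.48, -3.83, -3.86, -3.38 and -3.41 in WT replicates 1 to 6, each well above background. In HDAC4&5 replicates 1 to 6 it read -5.94, -6.15, -6.06, -6.70, -6.23 and -5.72, none of them well above background, so these values give only an upper limit. The measured means were -3.55 ± 0.23 and -6.13 ± 0.33 (SD, n = 6 each). Set against the dimmest signal that counted as well above background on each HDAC4&5 array, Ckm was at least 3.57-fold lower. This size depends on how the background is removed: with the normexp correction, which adds an offset to every spot, the difference was -0.27 ± 0.31 (SE) and no longer past the threshold.

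The Ckm probe and Ckb probe 2 lie in the same stretch of these related genes, and their sequences are shown because they limit how far the 2 readings are separate. Capitals mark the bases at which they differ where they overlap, 5′ to 3′.

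Ckm probe: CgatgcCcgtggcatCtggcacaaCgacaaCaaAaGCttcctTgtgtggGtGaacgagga

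Ckb probe 2: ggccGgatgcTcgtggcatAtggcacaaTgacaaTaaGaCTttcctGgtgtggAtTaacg

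They share 45 of the 56 bases over which they overlap. Over the other pairs among the 8 probes, the best ungapped overlap shared 17 to 26 bases. Ckb probe 1 shows no such likeness to the Ckm probe, and it read Ckb lower in HDAC4&5 cells as well. Whether Ckb transcript adds to the Ckm reading of WT cells was not tested.

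**Figure D1:**
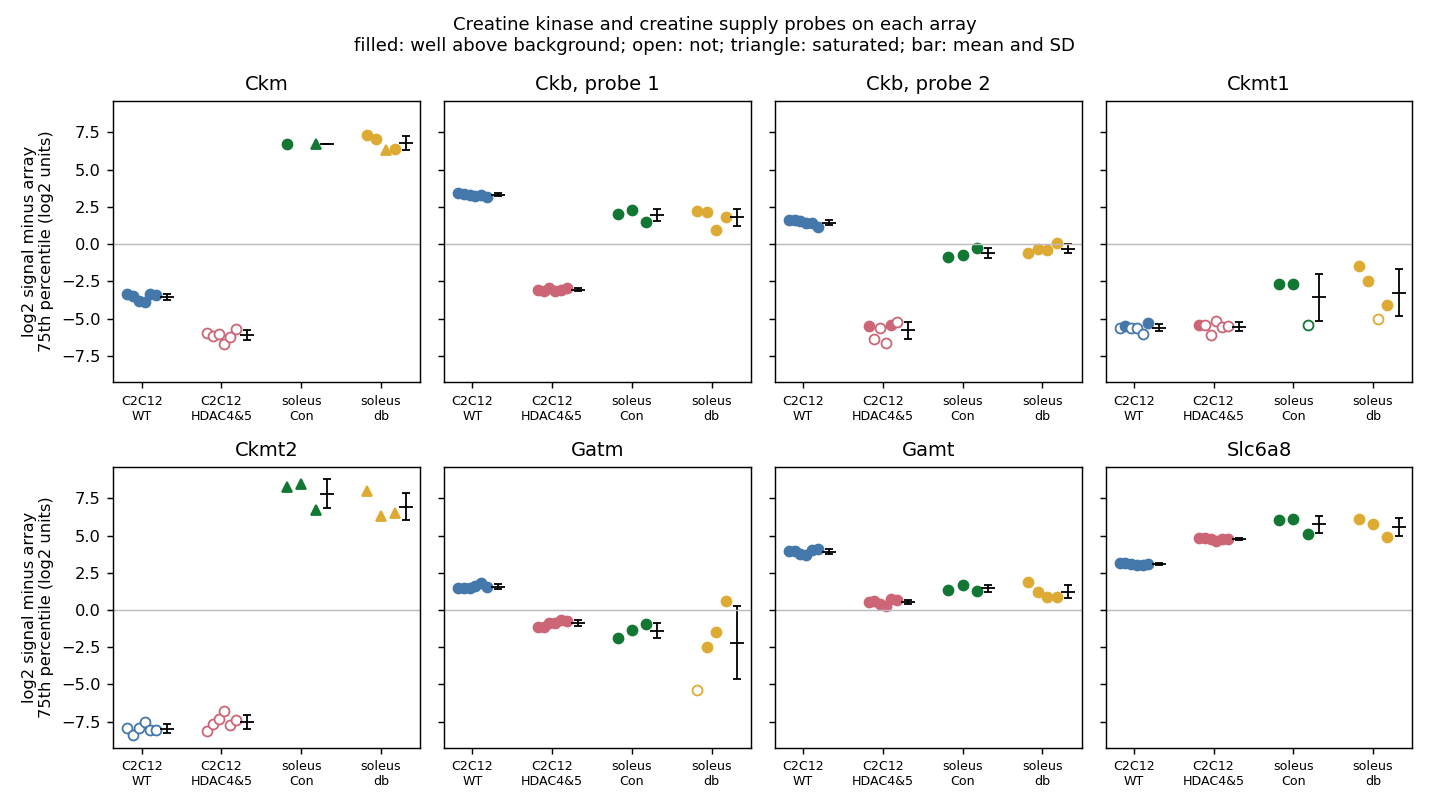
Level of each of the 8 probes on every array, as log2 signal minus the array's 75th percentile (vertical axis, log2 units), in the 4 groups (horizontal axis). Filled symbols are well above background, open symbols are not, triangles are saturated, and bars give the mean and SD, where spots flagged as outliers are left out. Ckb, Gamt and Gatm sit lower and Slc6a8 higher in HDAC4&5 than in WT cells with no overlap, while the Con and db points of each probe overlap.

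The mitochondrial kinases were close to background in the cells. Ckmt2 was not well above background on any of the 12 C2C12 arrays, where it read -8.40 to -7.51 in WT and -8.16 to -6.81 in HDAC4&5 cells. Ckmt1, at chr2:121189359-121189418 (mm9, plus strand), was well above background on 2 of 6 WT and 1 of 6 HDAC4&5 arrays, with means of -5.62 ± 0.23 and -5.55 ± 0.32 (SD, n = 6 each). The groups overlapped for both genes, and at this signal a difference was not detectable.

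Both enzymes of creatine synthesis read lower in HDAC4&5 cells. Gatm, which makes guanidinoacetate, has its probe at chr2:122420814-122420873 (mm9, minus strand). It read 1.44, 1.50, 1.47, 1.62, 1.82 and 1.56 in WT replicates 1 to 6 and -1.16, -1.12, -0.85, -0.85, -0.68 and -0.73 in HDAC4&5 replicates 1 to 6. The lowest WT array was 2.12 above the highest HDAC4&5 array. The means of 1.57 ± 0.14 and -0.90 ± 0.20 (SD, n = 6 each) differed by -2.47, or 5.54-fold, and by -2.61, -2.40 and -2.40 within the 3 slides.

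Gamt, which adds the methyl group, was printed in 10 spots per array, more than any other of the 8 probes, and its values are means over them. Its probe lies at chr10:79720991-79721047 (mm9, minus strand). The WT replicates 1 to 6 read 3.95, 3.94, 3.76, 3.72, 4.05 and 4.07, and the HDAC4&5 replicates 1 to 6 read 0.54, 0.57, 0.43, 0.29, 0.71 and 0.67. All HDAC4&5 arrays stayed above the 75th percentile of their array, so Gamt was lower but still among the brighter probes. The means of 3.91 ± 0.15 and 0.54 ± 0.16 (SD, n = 6 each) differed by -3.38, or 10.4-fold. On slides 1, 2 and 3 the differences were -3.39, -3.38 and -3.37, nearly the same value on each.

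Slc6a8, the creatine importer, alone among the 5 compared genes read higher. Its probe lies at chrX:70927598-70927657 (mm9, plus strand). The WT replicates 1 to 6 read 3.18, 3.15, 3.07, 3.04, 3.05 and 3.08, and the HDAC4&5 replicates 1 to 6 read 4.84, 4.84, 4.76, 4.64, 4.74 and 4.79. Both groups were tight, and the lowest HDAC4&5 array was 1.46 above the highest WT array. The means of 3.09 ± 0.06 and 4.77 ± 0.08 (SD, n = 6 each) differed by 1.67, or 3.19-fold, and by 1.68, 1.65 and 1.70 within the 3 slides.

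**Figure D2:**
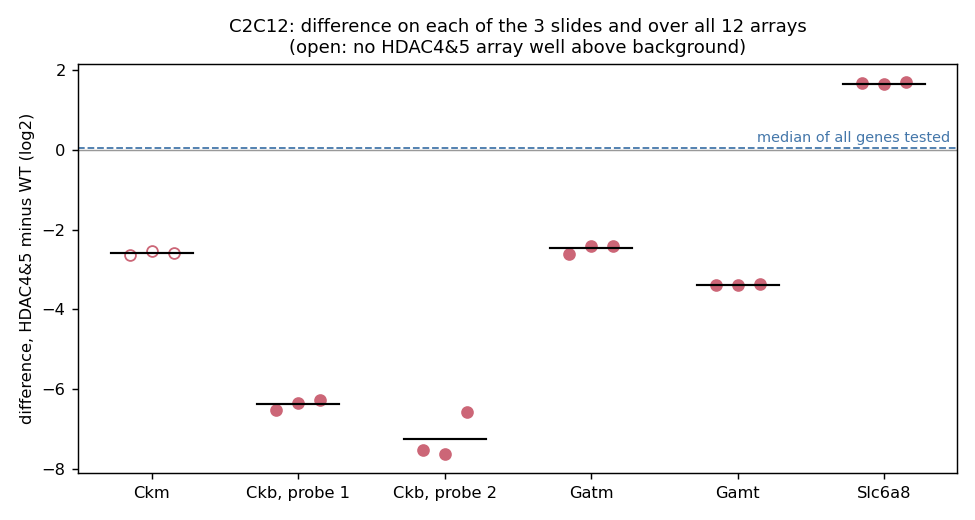
Difference in level, HDAC4&5 minus WT (vertical axis, log2 units), for the 6 probes compared in C2C12 cells (horizontal axis), with 1 point for each of 3 slides and a line for the difference over all 12 arrays. Open points mark the Ckm probe, which was not well above background on any HDAC4&5 array, and the dashed line is the median of all genes tested, 0.05. Points of a probe lie close together, except for Ckb probe 2, which ranged from -7.64 to -6.57.

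Most muscle markers tested read lower in HDAC4&5 cells. Of all genes tested, 32.8% were lower and 36.4% higher (limma, adjusted p under 0.05). The counts of markers here are to be read against these shares. Of the 6 slow fibre markers 5 were lower, while Myh7 was 2.72-fold higher (limma adjusted p = 7.64e-09). All 8 muscle differentiation markers were lower in HDAC4&5 cells (limma, adjusted p under 0.05), with a median difference of -4.90. Their summed level, in multiples of the array's 75th percentile, was 63.0 to 69.1 in WT and 3.90 to 5.03 in HDAC4&5 cells. Myog, a regulator of differentiation, was 816-fold lower (limma adjusted p = 1.11e-14). Myod1 was at least 263-fold lower. The summed level of the 5 fibroblast markers, among them collagens, was 38.2 to 45.9 in WT and 81.0 to 97.2 in HDAC4&5 cells. Of the 4 tested, 3 were higher and 1 lower in HDAC4&5 cells (limma, adjusted p under 0.05), the lower one being Dcn, 2.49-fold, and Lum was not well above background on any C2C12 array. The 3 endothelial markers were not well above background on any C2C12 array. The part of the myogenic state of the cells in the creatine gene differences was not tested.

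RefSeq promoter windows (GRCm38.p6, 250 bases before to 50 bases after the start) were given for 6 of the 7 genes, all but Slc6a8, with a pair of windows for Ckmt1. They were searched on both strands for the E-box CANNTG, its variant CAGCTG, the MEF2 site and the CArG box, since myogenic factors, MEF2 and serum response factor bind these. Ckb, the gene with the largest difference, had a match to the MEF2 site that begins 29 bases before the start, and no E-box. A MEF2 match is found in 3.19% of all 32851 windows. The match in Ckb overlaps a TATAAA, which 13.6% of windows hold. None of the other windows of these genes matched the MEF2 site, and none matched the CArG box, which 1.63% of windows hold.

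The 250 bases before the start are shown for Ckb and for the genes with an E-box there, with the MEF2 match or the E-boxes in capitals and read 5′ to 3′ on the strand of the gene.

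Ckb, chr12:111672339-111672588, minus strand: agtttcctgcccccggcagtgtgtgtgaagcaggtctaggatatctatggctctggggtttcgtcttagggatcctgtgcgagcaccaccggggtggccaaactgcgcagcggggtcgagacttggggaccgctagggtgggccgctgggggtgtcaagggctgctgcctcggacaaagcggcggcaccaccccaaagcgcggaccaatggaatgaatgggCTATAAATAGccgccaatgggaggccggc

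Ckm, chr7:19410844-19411093, plus strand: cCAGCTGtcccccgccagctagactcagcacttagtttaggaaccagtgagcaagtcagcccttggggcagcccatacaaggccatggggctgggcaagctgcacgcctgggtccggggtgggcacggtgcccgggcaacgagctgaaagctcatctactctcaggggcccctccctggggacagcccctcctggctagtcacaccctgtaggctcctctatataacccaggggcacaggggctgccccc

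Gatm, chr2:122611278-122611527, minus strand: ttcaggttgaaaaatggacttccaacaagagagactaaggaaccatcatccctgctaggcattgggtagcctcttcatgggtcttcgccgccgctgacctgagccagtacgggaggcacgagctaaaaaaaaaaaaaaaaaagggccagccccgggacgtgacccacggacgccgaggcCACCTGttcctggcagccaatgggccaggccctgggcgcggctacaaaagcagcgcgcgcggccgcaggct

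Ckmt2, chr13:91876886-91877135, minus strand: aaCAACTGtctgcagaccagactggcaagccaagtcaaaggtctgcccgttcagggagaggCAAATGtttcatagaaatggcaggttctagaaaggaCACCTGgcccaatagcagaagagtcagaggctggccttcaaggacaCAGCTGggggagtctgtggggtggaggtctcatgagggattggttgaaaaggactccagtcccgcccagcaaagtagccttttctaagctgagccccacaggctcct

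Ckmt2 had 4 E-boxes and Ckm and Gatm 1 each, in a search where 72.3% of all windows hold at least 1. Of these, 1 in Ckmt2 and that in Ckm are of the CAGCTG form, which 16.3% of windows hold. The Gamt window and 1 of the Ckmt1 windows each held 1 E-box. That of Gamt lies after the start, and that of Ckmt1, also of the CAGCTG form, across it. A match is a description of letters, and no binding was measured here.

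The order of the 4 groups differed between the genes of this pathway. Soleus and C2C12 arrays lay on different slides, so tissue and slide cannot be told apart, and the values below are levels with no test. Ckm read 6.73 and 6.70 in Con replicates 1 and 3, with the spot of replicate 2 left out as an outlier, and 7.31, 7.07, 6.35 and 6.42 in db replicates 1 to 4. The spots of Con replicate 3 and db replicate 3 were saturated. Its order was db and Con, which overlapped, then WT and last HDAC4&5 cells, which did not. Con muscle stood 10.27 above WT cells, or 9.15 with the normexp correction.

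Ckmt2 set muscle and cells furthest apart. Its probe lies at chr13:91993242-91995390 (mm9, minus strand) and read 8.23, 8.49 and 6.71 on the Con arrays, all saturated, so the true levels may be higher. On db replicates 2 to 4 it read 7.97, 6.33 and 6.51, all saturated too, and replicate 1 was left out as an outlier spot. Set against the dimmest such signal on each WT array, Con muscle was at least 11700-fold higher, which is 13.52 on the log2 scale. With the normexp correction the measured difference was 11.50, below that bound. Slc6a8 was also brightest in muscle, with 6.05, 6.08 and 5.08 in Con and 6.08, 5.76 and 4.87 in db replicates 1, 2 and 4. Con was 6.25-fold above WT cells, and HDAC4&5 cells lay between WT cells and muscle, their highest array at 4.84 being just below the lowest db array at 4.87.

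Ckb, Gamt and Gatm were highest in WT cells. Ckb probe 1 read 2.04, 2.26 and 1.48 in Con and 2.22, 2.18, 0.93 and 1.82 in db muscle, between the WT and the HDAC4&5 cells and apart from both. Gamt read 1.32, 1.70 and 1.28 in Con and 1.85, 1.23, 0.90 and 0.90 in db muscle, again between the 2 cell groups. Gatm read -1.88, -1.36 and -0.93 in Con muscle, which overlapped the HDAC4&5 cells and lay below every WT array. WT cells were above Con muscle by 2.61-fold for Ckb, 5.57-fold for Gamt and 7.78-fold for Gatm. These directions were the same under quantile normalization of all 19 arrays and under the normexp correction.

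In soleus muscle, none of the genes that could be compared differed between db and Con mice beyond the spread. Ckmt1 was not tested, and saturation kept Ckmt2 from being compared. Of the 6 genes tested, among them Ckmt2 with its saturated spots, 0 lay past the adjusted p of 0.05 in limma, 0 had an unadjusted p under 0.05, and the methods' t-test called 0 at either threshold. Over all 13071 genes tested, 1 was past the adjusted p (0.00765%), Mup1, a member of a multigene family named here after its value was seen, and 829 had an unadjusted p under 0.05. With slide as a block 39 genes passed, and none of the 6 did. No gene of the 6 had groups without overlap, against 10.4% of all genes tested. The median difference was -0.20 for the 6, -0.17 without Ckmt2 and -0.02 for all genes tested, and the median SE of all genes was 0.425 on the soleus arrays and 0.084 on the C2C12 arrays.

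The intervals below come from the fit without slide. With slide as a block the differences were -0.01 ± 0.25 for Ckb probe 1, 0.07 ± 0.26 for Ckm and -0.14 ± 0.24 for Gamt (SE). They were -0.17 ± 0.21 for Slc6a8 and -1.19 ± 0.89 for Gatm (SE). Each of these SE was smaller than in the fit without slide, and intervals of the blocked fit are not given. Ckm differed by 0.07 (95% interval -0.87 to 1.01) and Ckb probe 1 by -0.14 (-1.06 to 0.78), with limma adjusted p = 0.992 for each. The Ckm interval rests on 2 Con arrays, and 1 array of each group was saturated, so it may not bound the true difference. Ckb probe 2 differed by 0.31 (-0.40 to 1.02, limma adjusted p = 0.910), so the estimates of the 2 Ckb probes had opposite signs. Probe 2 resembles the Ckm probe, and whether Ckm transcript adds to its reading in muscle was not tested. For Gamt the difference was -0.22 (-0.98 to 0.55, limma adjusted p = 0.975), and for Slc6a8 it was -0.17 (-1.26 to 0.92, limma adjusted p = 0.992), with db replicate 3 left out as an outlier spot. Over Ckb probe 1, Gamt and Slc6a8, none of them saturated, the upper ends of the intervals were 0.55 to 0.92 and the lower ends -1.26 to -0.98. Ckmt2 was saturated on all 6 arrays whose spot was kept, so its size and direction between db and Con are not given.

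Gatm varied most among the mice. The db arrays read -5.36, -2.50, -1.46 and 0.57, the first of them not well above background, against -1.88, -1.36 and -0.93 in Con. The SD was 2.47 in db and 0.48 in Con, and the difference of -0.80 had an interval from -3.54 to 1.95 (limma adjusted p = 0.975). The difference was -2.31 on slide 4, which held Con and db replicates 1 and 2, and 0.49 on slide 5, which held Con replicate 3 and db replicates 3 and 4. Ckmt1, which was not tested, also followed the slide, with -2.66 to -1.48 on the 4 arrays of slide 4 and -5.42 to -4.08 on the 3 of slide 5.

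**Figure D3:**
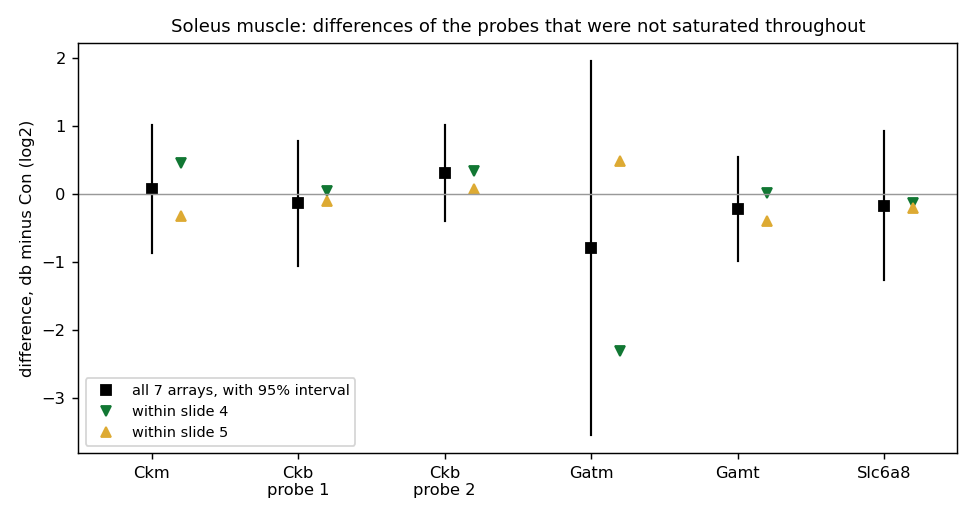
Difference in level, db minus Con (vertical axis, log2 units), for 6 probes tested in soleus muscle (horizontal axis), without the saturated Ckmt2. Ckm was saturated on 1 array of each group. Squares and lines give the difference over all 7 arrays with its 95% interval, from the fit without slide. Triangles give the difference within slide 4 and within slide 5. Every interval includes 0, and the 2 slides differ most for Gatm, with -2.31 and 0.49.

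Other tissue in the soleus samples was recorded beside these values. Outlier spots were left out of the summed levels, so a sum need not hold every gene of its list. All 5 fibroblast markers were well above background on every array. Their sums are not compared, since that of db replicate 2, 98.3, is too low to hold Dcn at its db mean of 7.00 (log2). Between db and Con, Col1a1 differed by -1.43, Col3a1 by -0.88, Dcn by -0.07, Lum by 0.23 and Pdgfra by 0.27. The 3 endothelial markers summed to 11.5 to 19.8 in Con and 5.00 to 10.9 in db muscle. For the endothelial sums the groups did not overlap, with db below Con. Groups without overlap were found for 10.4% of all genes tested. Within this list Cdh5 differed by -1.06, Kdr by -1.10 and Pecam1 by -0.20. For the adipocyte markers the sums were 224 to 439 in Con and 168 to 310 in db muscle, with overlap. The smooth muscle sums were 154 to 396 in Con and 299, 117 and 118 in db replicates 2 to 4, with overlap. That of db replicate 1, 20.2, is too low to hold Acta2 at its db mean of 7.15 (log2), so it is not compared. None of these lists had a gene past the adjusted p in limma. Their part in the soleus values was not tested.

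Of the 38 other genes fixed for energy transfer and creatine precursors, 32 were tested in C2C12 cells. In limma 10 rose and 14 fell in HDAC4&5 cells at an adjusted p under 0.05, with a median of 0.02 over the 32. These 24 are 75% of the 32, near the 69.2% of all genes tested, and the counts by list below are to be read against the same share. In soleus muscle 0 of 33 passed in limma. There 1 gene had an unadjusted p under 0.05. Of the 7 ATP users and M-band proteins 6 fell, and their median difference was -2.31, or -1.08 with genes dim on every array of a group at their bound. Myom3, an M-band protein, fell at least 69.9-fold (limma adjusted p = 2.11e-13) and was not well above background on any HDAC4&5 array. Myom2, a second M-band protein, fell from 5.65 ± 0.17 to 0.66 ± 0.07 (SD, n = 6 each; limma adjusted p = 1.26e-14). The M-band is where the muscle form of creatine kinase is anchored.

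Genes that supply arginine and glycine, the substrates of Gatm, moved both ways, with 3 that rose and 3 that fell of 6 tested. Ass1, which makes the precursor of arginine from citrulline, fell 35.3-fold, from 2.32 ± 0.10 to -2.82 ± 0.16 (SD, n = 6 each; limma adjusted p = 9.83e-15). Shmt1, which interconverts serine and glycine, rose by 0.97 ± 0.11 (SE, limma adjusted p = 2.59e-06), and Oat by 0.26 ± 0.04 (SE, limma adjusted p = 7.61e-05). The methyl donor cycle that feeds Gamt showed smaller shifts, with 3 higher and 2 lower of 7. Mtr, methionine synthase, rose by 0.76 ± 0.11 (SE, limma adjusted p = 2.66e-05), and Mat2b was at -0.44 ± 0.10 (SE, limma adjusted p = 0.00223).

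Adenylate kinases, which rebuild ATP from ADP, and AMP deaminases had 2 higher and 3 lower of 7 tested. Ak4, of mitochondria, rose by 1.95 ± 0.12 (SE, limma adjusted p = 1.17e-08), Ampd2 by 1.09 ± 0.08 (SE, limma adjusted p = 5.71e-08), and Ak3 was at -0.60 ± 0.04 (SE, limma adjusted p = 3.28e-08). Of the 5 genes for adenine nucleotide exchange across mitochondrial membranes, Vdac3 rose by 0.28 ± 0.08 (SE, limma adjusted p = 0.00635) and Vdac2 by 0.22 ± 0.09 (SE, limma adjusted p = 0.0416), and the other 3 did not pass.

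**Figure D4:**
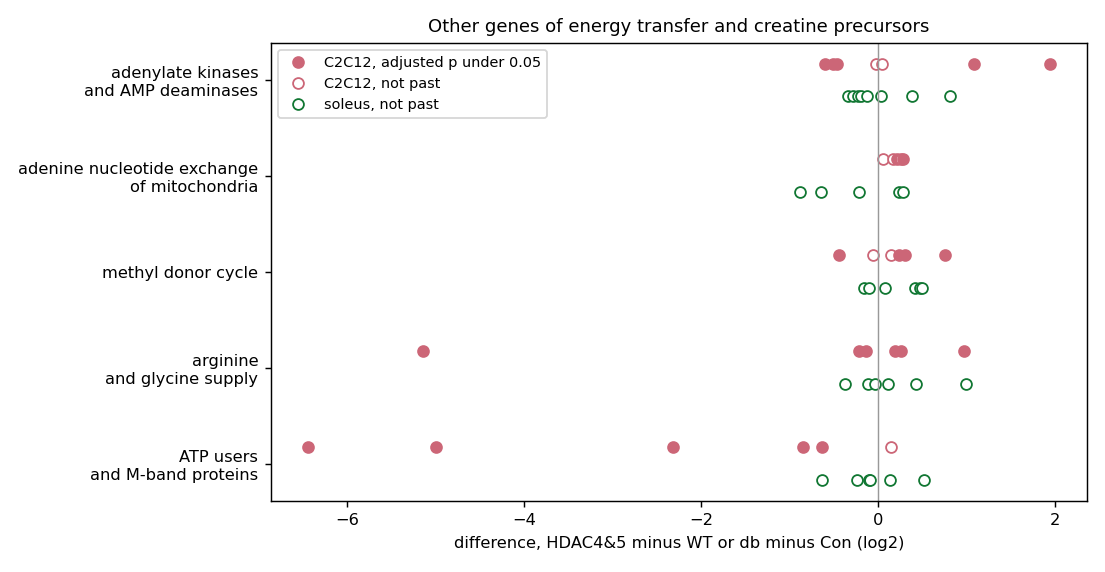
Difference in level of tested genes of 5 lists (vertical axis), HDAC4&5 minus WT in C2C12 cells and db minus Con in soleus muscle (horizontal axis, log2 units). Filled points passed an adjusted p of 0.05 in limma, open points did not. Genes not reported here are left out, and the points furthest to the left are Myom3, Ass1 and Myom2 in C2C12 cells, and no soleus point is filled.

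Genes whose 4 group means followed the same pattern were found among 15499 genes by the root mean square difference of the centred means, in log2 units, which describes only 4 points. Nearest to Ckb were Nid2 (0.146), Jam2 (0.198) and Lypd6 (0.237), where the median gene stood at 2.59. Closest to Ckm was Myom1, an M-band protein, at 0.152, then Palmd (0.249) and Pcsk6 (0.317), with a median of 5.87. Neither Ckm nor Myom1 was well above background on any HDAC4&5 array, so their likeness in that group is between background readings. In muscle Ckm was saturated on 1 array of each group. None are given for Ckmt2, whose means were saturated in muscle and not above background in cells. Gamt lay nearest to 2600006K01Rik (0.071), Cdon (0.119) and Sytl1 (0.129), and Gatm to A930038B10Rik (0.149), Tmem132a (0.159) and Esyt1 (0.199). Slc6a8 had B230340J04Rik (0.087), 2300009A05Rik (0.087) and Echdc3 (0.089) beside it.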

How the data were processed

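RNA (100 ng) was labelled and hybridised to 1-colour arrays, 1 per labelled sample. Whether labelled samples share a dish or mouse is not given by the labels. Per the file headers and the submitters' processing notes, the authors extracted spot intensities with Agilent Feature Extraction 9.5.1.1, and the deposited processed intensity had its background subtracted and spatial trends removed, with no scaling across arrays. The deposited matrix holds the authors' ratio of each processed intensity to 1 constant per array (column medians 0.9801 to 1). Of its 19 columns, 15 matched a scanner file within 0.01 on the log2 scale and 13 of these bore the same label, so it was used by group only.

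Control and outlier spots were left out, saturated spots kept, spots of a probe averaged, and log2 values set against the array's 75th percentile. Each gene was read from its brightest probe on average, and was tested if all arrays of either group had it well above background. Data sets were fitted apart with limma 3.58.1 in R 4.3.3 and p adjusted by Benjamini-Hochberg over all genes at 0.05. The fit was tested on simulated data with independent noise on each array and no slide effect. That test cannot speak for p-values where arrays of a slide deviate together. Names were updated by RefSeq accession for 27198 probes (2694 symbols changed). Probe coordinates are the files' (mm9). Promoters are RefSeq's (GRCm38.p6), searched with Python and pandas.

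The genes and all lists were chosen with earlier results of these data known. Named are all 7 genes, up to 3 genes per list past the threshold with the largest differences, and the 3 nearest in pattern, except for Ckmt2. Results of some genes counted within the lists are not reported here. The number of arrays limits precision. Replicate numbers pair the arrays through the slide: same-numbered arrays deviated together (r across genes 0.316 to 0.683 in 6 C2C12 pairs and 0.494 to 0.753 in 3 soleus pairs), as did those of other numbers sharing a slide (0.365 to 0.701 and 0.417 to 0.811), and arrays on different slides did not (-0.64 to 0.0925 and -0.777 to -0.439). Alternatives were other scalings, filters, probe rules, blocks, tests and subsets of arrays. The labels name biotin where the files hold a single Cy3 channel.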

Additional observations from a re-analysis of the deposited data

How the results depend on the processing

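In C2C12 cells the 5 compared genes kept their direction under every alternative that gave a value: Ckb from -6.81 to -5.31, Gamt -3.56 to -3.34, Gatm -2.65 to -2.26, Slc6a8 1.50 to 1.69 and Ckm -2.74 to -0.27. The lowest Ckm size came with the normexp correction, which left 4 of the 5 past the threshold and took the other energy and precursor genes past it from 24 to 15. The number past it over all genes ranged from 7077 to 10859. With the arrays of a group on a slide averaged to 1 sample, chosen after seeing the data, 8365 genes, 5 creatine genes and 19 of the other genes passed.

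In soleus muscle, with all 7 arrays and no block, 0 of the creatine genes had an unadjusted p under 0.05 in limma or the methods' t-test. The number past the adjusted p in either test was 0 under any alternative. Without slide 4 or slide 5, chosen after seeing the data, it was also 0. Signs were not stable: Ckb was 0.03 in the deposited matrix, 0.08 as the mean of both probes and 0.05 without slide 5, Ckm -0.09 after quantile normalization and -0.32 without slide 4, Gatm 0.51 in the matrix and 0.49 without slide 4, Slc6a8 0.01 with normexp and 0.20 in the matrix, and Gamt 0.02 without slide 5. With 1 array left out in turn, Ckb ranged from -0.36 to 0.15, Ckm from -0.10 to 0.22, Gatm from -1.72 to 0.26 and Slc6a8 from -0.49 to 0.18. The cause was not tested. The count of genes past the threshold in soleus, 1, was 3 after quantile normalization, 0 with normexp, the matrix or the strict filter, 39 with the slide block, 141 without slide 4 (a lone Con array is then assumed to vary like the others), 15 without slide 5, 2 with the adjusted and 969 with the unadjusted methods' t-test, 829 at an unadjusted p in limma, and 0 to 2 with 1 array left out. Of the other energy and precursor genes 1 had an unadjusted p under 0.05 in either test.

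With replicate number as a block, the counts were 10729 genes, 5 creatine genes and 23 of the other energy and precursor genes in C2C12 cells, and 1, 0 and 0 in soleus muscle, so that this pairing changed no call of a creatine gene.

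Ckmt1 and Ckmt2 in C2C12 cells and Ckm in HDAC4&5 cells lie at or near the background, and Ckmt2 in muscle is saturated, so their sizes are limits.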
